A study of Bos taurus with 9 samples.

Results

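Oxidative phosphorylation genes were examined in bovine cartilage cells and marrow stromal cells on single-colour expression arrays, 1 array per sample. Genes were taken by symbol: those beginning with NDUFA, NDUFB, NDUFC, NDUFS, NDUFV or UQCR, SDHA to SDHD, COX4 to COX8, and ATP5. This gave 88 of the 9155 genes named on the array, each read by its probe set of highest mean. Of these, 36 encode subunits of complex I, 4 of complex II, 8 of complex III, 13 of complex IV and 16 of complex V. The remaining 11 symbols share a prefix with them but belong to assembly factors or relatives of the subunits, namely NDUFAF3, NDUFAF5, NDUFAF6, NDUFAF8, SDHAF1 to SDHAF4, the ATP synthase inhibitor ATP5IF1, NDUFA4L2 and COX7A2L, and they were counted apart. NDUFA4, first described in complex I, was counted with complex IV, of which it is now held to be a part.

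Each of the 3 groups had 3 arrays. Day 28 chondrocytes came from articular cartilage, were set in agarose straight after isolation and were kept for 28 days in chemically defined medium with 10 ng/mL of TGF-beta3, a growth factor that drives cartilage formation. Day 28 MSCs, mesenchymal stem cells of bone marrow, had the same gel, medium, growth factor and time, and day 0 MSCs were the undifferentiated cells. All cells came from calves aged 3 to 6 months, none carried a genetic change, and a replicate number stands for 1 donor, whose cells are in every group. No day 28 group lacked TGF-beta3 and no chondrocytes were taken at day 0, so that time, gel culture, medium and growth factor cannot be told apart. Between day 28 chondrocytes and day 0 MSCs the cell type and its tissue differ as well, and cannot be told apart from these. Values for the arrays below are given in the order of donors 1, 2 and 3.

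The respiratory chain sits in the inner mitochondrial membrane. Complex I takes electrons from NADH and complex II from succinate, complex III passes them to cytochrome c, and complex IV hands them to oxygen. Complexes I, III and IV pump protons, and complex V, the ATP synthase, uses the return of these protons to make ATP. A few subunits of complexes I, III, IV and V are encoded by mitochondrial DNA, and no probe set was named for those genes, so that every member here is a nuclear gene. Articular cartilage has no blood vessels, and its chondrocytes are known to make most of their ATP by glycolysis.

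All 88 members had a mean signal above the 25th percentile of probe sets and 87 above the median, and the median member lay at the 95.7th percentile. Array medians over all probe sets were between 4.91 and 5.10. The bioC hybridisation control read 8.80 in replicate 3 of both day 28 groups, against 11.38 to 11.83 on the other arrays. The cartilage markers, 6 genes measured, averaged 11.47 to 11.65 per array in day 28 chondrocytes, 11.41 to 11.72 in day 28 MSCs and 5.26 to 5.69 in day 0 MSCs. The mean difference between 3′ and 5′ probe sets of 6 control transcripts, which grows as RNA is degraded or copied less completely, was 1.81 ± 0.19 in day 28 chondrocytes, 1.81 ± 0.20 in day 28 MSCs and 1.34 ± 0.23 in day 0 MSCs (SD, n = 3 each). The group means of this difference thus set day 0 MSCs apart, as do the results below, but single arrays overlapped. Replicate 3 of day 0 MSCs read 1.587 and replicate 2 of day 28 MSCs 1.583. The part of this difference in the results below was not tested.

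Nuclear genes for the respiratory complexes were lower in both day 28 groups than in day 0 MSCs. In day 28 MSCs against day 0 MSCs, 43 of the 88 members fell and 1 rose at an adjusted p under 0.05 in limma, the threshold for every call here. Over all 9155 genes, 21% fell and 13.5% rose in that comparison. The median difference of the members was -0.54 on the log2 scale, a ratio of 0.688, beside -0.11 over all genes. In day 28 chondrocytes against day 0 MSCs, 50 members fell and 2 rose, beside 20.9% and 15.1% of all genes, and the median was -0.60, a ratio of 0.661, beside -0.12. With arrays centred on ribosomal protein genes, 32 members fell and 2 rose in that comparison, with a median of -0.41. Day 28 chondrocytes and day 28 MSCs differed far less, with 2 members higher and 3 lower in chondrocytes beside 8.35% and 4.81% of all genes, and a median of -0.09 beside -0.02. These 2 and 3 became 2 and 0 with arrays centred on ribosomal protein genes and 2 and 1 after cyclic loess. The comparisons of the day 28 groups with day 0 MSCs share the day 0 arrays. With the donor as a block, 50 members fell and 3 rose in day 28 MSCs against day 0 MSCs.

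**Figure D1:**
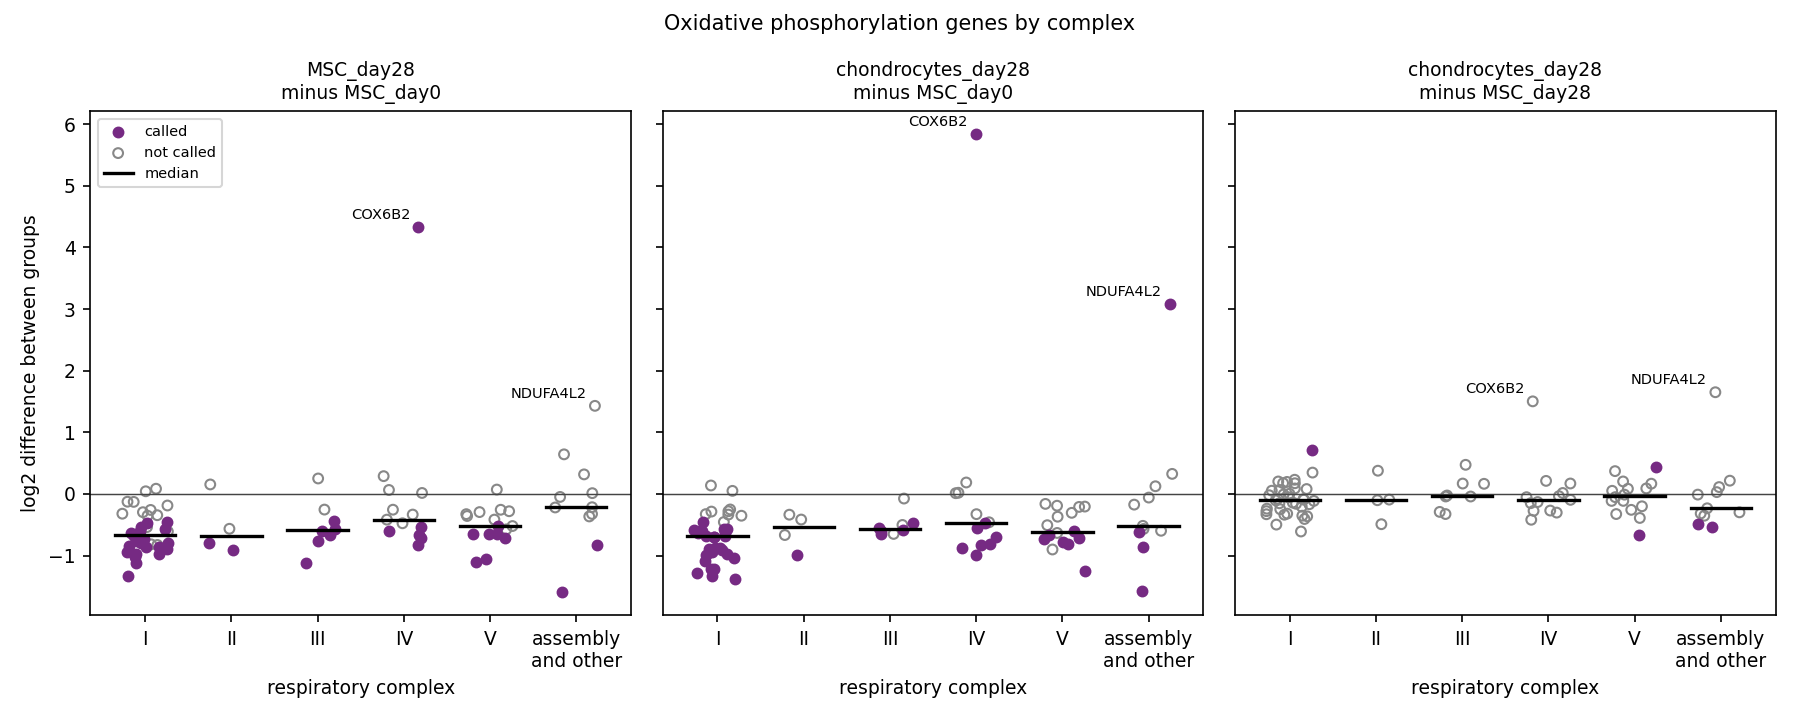
The log2 difference of each of the 88 members is plotted by respiratory complex in 3 panels, 1 per comparison. Filled points were called at an adjusted p under 0.05, open points were not, and the bar is the median of the class. In both comparisons with day 0 MSCs the medians of all 6 classes lie below 0, with COX6B2 and NDUFA4L2 far above the rest, and between the 2 day 28 groups they lie close to 0.

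The falls were moderate in size and spread over many members. Called falls ran from -0.43 to -1.60 in day 28 MSCs and from -0.45 to -1.57 in day 28 chondrocytes, both against day 0 MSCs. Called or not, 75 of 88 members were below 0 in day 28 MSCs against day 0 MSCs, beside 5418 of all 9155 genes. Of these members, 71 were below 0 in every donor. In chondrocytes, 79 members were below 0 against day 0 MSCs, beside 5431 of all 9155 genes, and 76 of the members were so in every donor. By group mean, day 0 MSCs were the highest group for 73 members, day 28 MSCs for 9 and day 28 chondrocytes for 6. The highest group was not counted over all genes. Values of the groups did not overlap for 68 members between day 28 and day 0 MSCs and for 76 between chondrocytes and day 0 MSCs, beside 46.9% and 53.9% of all genes. Between the day 28 groups, 25 members did not overlap, beside 32% of all genes. The 66 members with a mean above the members' lower quartile were also set beside all 2054 genes in that range of signal. Of these members, 31 fell in day 28 MSCs and 38 in chondrocytes against day 0 MSCs, beside 23.8% and 25.1% of the genes, and 2 were lower in chondrocytes than in day 28 MSCs, beside 5.5%.

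The shift was seen on each array. The median deviation of the 88 members from the day 0 mean was -0.56, -0.54 and -0.68 on the arrays of day 28 chondrocytes and -0.41, -0.45 and -0.64 on those of day 28 MSCs, against 0.04, 0.02 and -0.05 on those of day 0 MSCs. Donor 3 was the lowest donor in each group. Its arrays in the day 28 groups are those with the low bioC control, and without these 2 arrays 34 members fell and 1 rose in day 28 MSCs, and 43 fell and 2 rose in chondrocytes, both against day 0 MSCs. Leaving out any 1 array left 32 to 45 falls in day 28 MSCs and 35 to 45 in chondrocytes, and 28 of the 43 falls and 31 of the 50 were called in each of the 6 fits. In these bulk samples, fewer cells of a type and less RNA per cell cannot be told apart.

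**Figure D2:**
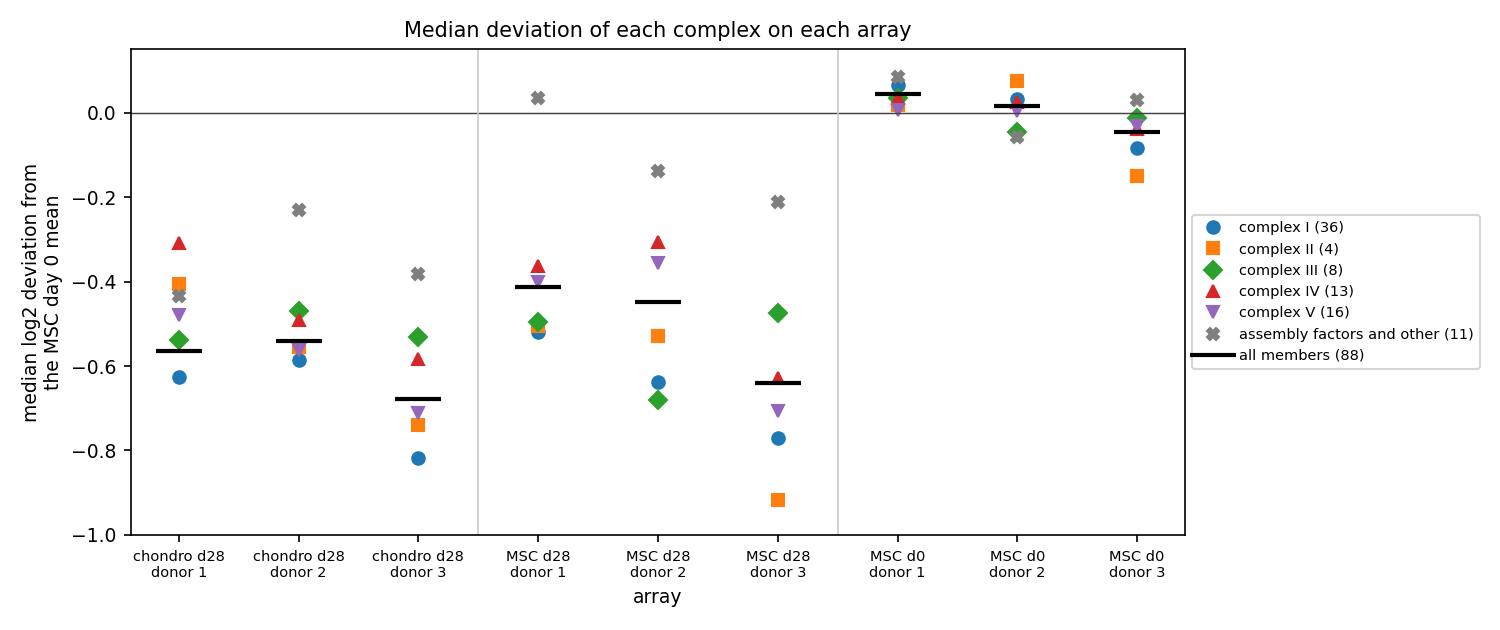
Each column is 1 array, grouped as day 28 chondrocytes, day 28 MSCs and day 0 MSCs with the donor below, and the vertical axis is the median log2 deviation from the day 0 mean of each gene. Symbols are the classes, with their number of genes in the legend, and the black bar is the median of all 88 members. Complex I lies between -0.59 and -0.82 on the chondrocyte arrays and between -0.52 and -0.77 on the day 28 MSC arrays.

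Complex I, the largest class, held the most falls by number, while by share complex III had more in day 28 MSCs, at 75% against 58.3%. In day 28 MSCs 21 of its 36 genes fell and 0 rose, with a median of -0.66. In day 28 chondrocytes 27 fell and 0 rose against day 0 MSCs, with a median of -0.68. The complex is L-shaped, with a peripheral arm that takes electrons from NADH and a membrane arm that pumps protons. Of 15 genes of the peripheral arm, 10 fell in day 28 MSCs and 12 in chondrocytes, and of 20 of the membrane arm, 10 and 14 fell, both against day 0 MSCs. NDUFV1 holds the flavin that accepts electrons from NADH. Its log2 signal was 7.19, 7.66 and 7.02 in day 28 chondrocytes and 7.78, 7.44 and 6.88 in day 28 MSCs, against 8.46, 8.36 and 8.19 in day 0 MSCs. Both day 28 groups lay below the day 0 arrays and overlapped each other. The difference from day 0 was -0.97 ± 0.25 in day 28 MSCs (SE; adjusted p = 0.0156) and -1.05 ± 0.25 in chondrocytes (adjusted p = 0.0109). The first call was lost without MSC_day0 replicate 1, with an adjusted p of 0.0558. NDUFS1, the iron-sulphur subunit that receives the electrons next, read 8.04, 8.29 and 8.21 in day 28 chondrocytes and 8.36, 8.36 and 8.10 in day 28 MSCs, against 8.60, 8.86 and 8.78 in day 0 MSCs. It differed by -0.48 ± 0.14 in day 28 MSCs (adjusted p = 0.0305) and by -0.57 ± 0.14 in chondrocytes (adjusted p = 0.0139). The first of these calls was lost without MSC_day28 replicate 3 (adjusted p = 0.0966) and without MSC_day0 replicates 2 or 3, and the second without chondrocyte replicate 1 (adjusted p = 0.0547).

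NDUFS4, an accessory subunit of the peripheral arm whose loss causes Leigh syndrome in humans, showed a stepwise order. It read 10.42, 10.44 and 10.60 in day 28 chondrocytes, 10.85, 10.97 and 10.73 in day 28 MSCs and 11.85, 11.72 and 11.53 in day 0 MSCs, and no 2 groups overlapped. The differences were -0.85 ± 0.14 in day 28 MSCs (adjusted p = 0.00154) and -1.21 ± 0.14 in chondrocytes against day 0 MSCs (adjusted p = 0.000225), while the step of -0.36 between the day 28 groups was not called (adjusted p = 0.136). The largest falls of complex I in day 28 MSCs were in the membrane arm, at NDUFA11, NDUFA13 and NDUFB7. NDUFA11 read 8.10, 7.65 and 7.57 in day 28 MSCs against 9.20, 9.12 and 8.97 in day 0 MSCs, a difference of -1.32 ± 0.22 (adjusted p = 0.00167). NDUFA13, also known as GRIM-19, fell by 1.12 ± 0.25 in day 28 MSCs (adjusted p = 0.00785). NDUFB7 fell by 1.03 ± 0.23 there (adjusted p = 0.00766). In chondrocytes against day 0 MSCs the largest falls were those of NDUFB10, NDUFA13 and NDUFB9, again of the membrane arm. NDUFB10 read 8.57, 8.79 and 8.23 in day 28 chondrocytes against 10.04, 10.06 and 9.62 in day 0 MSCs, and the ranges were apart by more than the spread within either group. The differences were -1.37 ± 0.24 for NDUFB10 (adjusted p = 0.00222), -1.32 ± 0.25 for NDUFA13 (adjusted p = 0.00341) and -1.29 ± 0.23 for NDUFB9 (adjusted p = 0.00273). Some members of the complex were not called. NDUFA1, NDUFB2 and NDUFC2 differed from day 0 MSCs by 0.04, -0.13 and 0.08 in day 28 MSCs and by -0.29, 0.05 and -0.25 in chondrocytes, none of them called. For NDUFB2 this depends on the probe set. Its other set read 9.64, 9.70 and 9.52 in day 28 chondrocytes and 9.34, 8.83 and 8.86 in day 28 MSCs. On the day 0 MSC arrays that set read 10.50, 10.19 and 10.35, above both day 28 groups without overlap.

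NDUFV3, a small accessory subunit next to NDUFV1, followed another order. It read 9.05, 9.35 and 9.17 in day 28 chondrocytes, 8.61, 8.29 and 8.54 in day 28 MSCs and 9.0, 8.96 and 9.20 in day 0 MSCs, so that the day 28 MSCs were low and the chondrocytes overlapped day 0 MSCs. The gene fell in day 28 MSCs by 0.57 ± 0.15 (adjusted p = 0.0158) and was higher in chondrocytes than in day 28 MSCs by 0.71 ± 0.15 (adjusted p = 0.0154). It was the 1 complex I gene called between the day 28 groups. That call was lost without chondrocyte replicate 2, with an adjusted p of 0.0664, and without MSC_day28 replicate 2. The fall in day 28 MSCs was called in 4 of 6 fits that left out 1 array, and was lost without MSC_day0 replicate 3 (adjusted p = 0.0556) or MSC_day28 replicate 2.

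Complex II, succinate dehydrogenase, also works in the tricarboxylic acid cycle and has no subunit from mitochondrial DNA. Its catalytic subunits SDHA and SDHB fell in day 28 MSCs, while neither of the membrane anchors SDHC and SDHD was called. SDHB, which carries the iron-sulphur clusters, read 9.25, 9.47 and 9.26 in day 28 chondrocytes and 9.53, 9.43 and 9.30 in day 28 MSCs, against 10.44, 10.28 and 10.26 in day 0 MSCs. The day 28 groups overlapped each other, and both were well below day 0. Its differences were -0.91 ± 0.13 in day 28 MSCs (adjusted p = 0.000872) and -1.0 ± 0.13 in chondrocytes against day 0 MSCs (adjusted p = 0.000517). SDHA, the flavoprotein that oxidises succinate, fell in day 28 MSCs by 0.79 ± 0.16 (adjusted p = 0.00473). In chondrocytes it was -0.41 ± 0.16 against day 0 MSCs and not called (adjusted p = 0.0769). SDHD read 9.49, 9.16 and 9.21 in day 28 chondrocytes, 9.53, 10.10 and 9.70 in day 28 MSCs and 9.53, 9.95 and 9.39 in day 0 MSCs. Both day 28 groups overlapped day 0 MSCs, and the chondrocytes lay just below the day 28 MSCs, with a difference of -0.49 that was not called (adjusted p = 0.171). With donor as a block SDHC was called in both comparisons with day 0, at -0.56 in day 28 MSCs (adjusted p = 0.032) and -0.67 in chondrocytes (adjusted p = 0.016).

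Complex III, the cytochrome bc1 complex, fell at 6 of 8 genes in day 28 MSCs and 5 of 8 in chondrocytes against day 0 MSCs, with medians of -0.59 and -0.57. These counts rest on single arrays. In day 28 MSCs 3 genes fell without MSC_day28 replicate 2 or without MSC_day0 replicate 3. In chondrocytes 1 fell without chondrocyte replicate 1 or without MSC_day0 replicate 1, 3 without replicate 3 of either group, and at most 4 in any fit without 1 array. UQCRC1, a core subunit, read 8.11, 8.35 and 7.96 in day 28 chondrocytes, 8.18, 7.77 and 7.05 in day 28 MSCs and 8.76, 8.84 and 8.77 in day 0 MSCs. The day 28 MSC arrays were widely spread, with donor 3 the lowest. The fall in day 28 MSCs was 1.12 ± 0.26 (adjusted p = 0.00912) and was called in all 6 fits without 1 array, at -0.81 to -1.38. In chondrocytes the difference from day 0 was -0.65 ± 0.26 and not called (adjusted p = 0.085). UQCRFS1, the Rieske iron-sulphur protein, read 9.69, 9.90 and 9.84 in day 28 chondrocytes and 9.90, 9.63 and 9.40 in day 28 MSCs, against 10.48, 10.29 and 10.42 in day 0 MSCs. It fell by 0.76 ± 0.15 in day 28 MSCs (adjusted p = 0.00521) and by 0.59 ± 0.15 in chondrocytes (adjusted p = 0.0173), the second call being lost without chondrocyte replicate 1 (adjusted p = 0.0639) or MSC_day0 replicate 1. Among the small subunits, UQCR11 fell in both day 28 groups, by 0.57 ± 0.13 in MSCs (adjusted p = 0.0105) and 0.60 ± 0.13 in chondrocytes (adjusted p = 0.0087). UQCRQ fell by 0.67 ± 0.17 in day 28 MSCs (adjusted p = 0.017), which was lost without MSC_day0 replicate 3 (adjusted p = 0.0603) or MSC_day28 replicate 2, and UQCRB by 0.64 ± 0.18 in chondrocytes (adjusted p = 0.0232), which was called in 2 of 6 fits without 1 array and reached 0.0842 without MSC_day0 replicate 1. With donor as a block the fall of UQCRC2 in day 28 MSCs was no longer called (adjusted p = 0.065, beside 0.0447 without the block, at -0.43), and it stood in 1 of 6 fits without 1 array. UQCRH, the hinge protein of the cytochrome c1 site, was not called in any comparison and read 12.02, 11.84 and 12.11 in day 28 chondrocytes, 12.23, 12.28 and 12.44 in day 28 MSCs and 11.99, 12.18 and 12.03 in day 0 MSCs. CYC1, a subunit gene outside the prefixes, is not among the 8. It fell by 0.80 ± 0.19 in day 28 MSCs (adjusted p = 0.0113), while -0.50 in chondrocytes against day 0 MSCs was not called.

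Complex IV, cytochrome c oxidase, held both falls and the largest rise among the members. In day 28 MSCs 5 of 13 genes fell and 1 rose, and in chondrocytes 7 fell and 1 rose, both against day 0 MSCs. In day 28 MSCs 3 fell without MSC_day0 replicate 1 and 2 without MSC_day0 replicate 2 or MSC_day28 replicate 3. In chondrocytes 4 fell without chondrocyte replicate 3 or MSC_day0 replicates 1 or 2. Among the nuclear subunits that every tissue uses, COX7C read 11.31, 11.27 and 11.24 in day 28 chondrocytes and 11.50, 11.36 and 11.26 in day 28 MSCs, against 12.14, 12.07 and 12.05 in day 0 MSCs. Its differences were -0.71 ± 0.12 in day 28 MSCs (adjusted p = 0.00192) and -0.81 ± 0.12 in chondrocytes (adjusted p = 0.000991). COX5A read 10.02, 10.51 and 10.08 in day 28 chondrocytes and 10.48, 10.33 and 9.90 in day 28 MSCs, against 11.00, 10.93 and 10.79 in day 0 MSCs. Its falls of 0.67 ± 0.19 in day 28 MSCs (adjusted p = 0.027) and 0.71 ± 0.19 in chondrocytes (adjusted p = 0.0214) were close to the threshold. The first was lost without MSC_day0 replicates 1 (adjusted p = 0.0855) or 2 or MSC_day28 replicate 3, and the second without chondrocyte replicates 1 (adjusted p = 0.079) or 3 or MSC_day0 replicates 1 or 2. COX5B differed by -0.33 ± 0.13 in day 28 MSCs and was not called there (adjusted p = 0.0903). Its fall of 0.47 ± 0.13 in chondrocytes (adjusted p = 0.0259) was called in 1 of 6 fits without 1 array, reaching 0.0824 without chondrocyte replicate 2. COX4I1 and NDUFA4 fell in chondrocytes against day 0 MSCs, by 0.83 ± 0.20 (adjusted p = 0.0112) and 0.56 ± 0.12 (adjusted p = 0.00627). Neither was called in day 28 MSCs, where they differed by -0.42 ± 0.20 and -0.26 ± 0.12, nor between the day 28 groups.

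COX6B2 was the member that rose in both day 28 groups. COX6B proteins lie on the outer face of the complex, and in mammals COX6B2 is known as the testis isoform. Its log2 signal was 11.07, 10.89 and 11.28 in day 28 chondrocytes, 8.84, 9.12 and 10.77 in day 28 MSCs and 5.25, 4.60 and 5.90 in day 0 MSCs. The 3 groups did not overlap, although donor 3 of the day 28 MSCs came close to the chondrocytes. The difference from day 0 was 4.33 ± 0.49 in day 28 MSCs (adjusted p = 0.000222) and 5.83 ± 0.49 in chondrocytes (adjusted p = 4.24e-05), and leaving out 1 array at a time gave 3.73 to 4.70 and 5.51 to 6.16. Between chondrocytes and day 28 MSCs it was 1.5 ± 0.49 and not called (adjusted p = 0.0882). It was called there with donor as a block (adjusted p = 0.0197) and, at 2.10, without MSC_day28 replicate 3 (adjusted p = 0.00603). The array held 1 probe set for this symbol, and COX6B1, COX4I2 and COX8C were not analysed here.

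The other isoform pairs of complex IV were each read by their own probe sets, whose levels cannot be set against each other. COX6A1, the form found in most tissues, fell by 0.83 ± 0.26 in day 28 MSCs (adjusted p = 0.0366) and by 0.98 ± 0.26 in chondrocytes (adjusted p = 0.0181). The first call stood in 1 of 6 fits without 1 array and reached 0.106 without MSC_day0 replicate 1, and the second stood in 3 of 6 and reached 0.0623 without chondrocyte replicate 3. COX6A2, the heart and muscle form, read 2.68 to 2.94 over all chondrocyte arrays, 2.82 to 2.89 in day 28 MSCs and 2.66 to 2.85 in day 0 MSCs, close to the 25th percentile of all probe sets at 2.58. COX7A2, the form of most tissues, read 12.04, 12.05 and 11.93 in day 28 chondrocytes and 11.91, 11.77 and 11.70 in day 28 MSCs, against 12.34, 12.22 and 12.44 in day 0 MSCs. It fell by 0.54 ± 0.13 in day 28 MSCs (adjusted p = 0.0102), while -0.33 ± 0.13 in chondrocytes was not called (adjusted p = 0.0786). COX7A1, its heart and muscle counterpart, was not called in any comparison and read 10.16, 10.10 and 9.76 in day 28 chondrocytes, 10.24, 10.13 and 10.44 in day 28 MSCs and 9.98, 10.09 and 9.88 in day 0 MSCs. COX8A, the general form of that subunit, was not called either and stayed between 11.17 and 11.50 on all 9 arrays. COX8B, the muscle form, missed the threshold at -0.48 ± 0.16 in day 28 MSCs (adjusted p = 0.0502) and -0.46 ± 0.16 in chondrocytes (adjusted p = 0.0559). With donor as a block both were called (adjusted p = 0.025 and 0.029). These values are from the COX8B probe set of higher signal. A second set of COX8B lay below the 25th percentile of probe sets, with a mean of 2.42 over all arrays. Its group means were 2.28 in day 28 chondrocytes, 2.30 in day 28 MSCs and 2.69 in day 0 MSCs. Over the 9 skeletal muscle markers measured, the mean level per array was 5.20 to 5.30 in day 28 chondrocytes, 5.15 to 5.27 in day 28 MSCs and 4.86 to 5.0 in day 0 MSCs. These markers did not move as a set. In day 28 MSCs against day 0 MSCs, 1 was higher and 1 lower, with a median difference of -0.03. The rise was that of MYH7, at 2.20. In chondrocytes against day 0 MSCs, 3 were higher and 2 lower, with a median of -0.06.

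**Figure D3:**
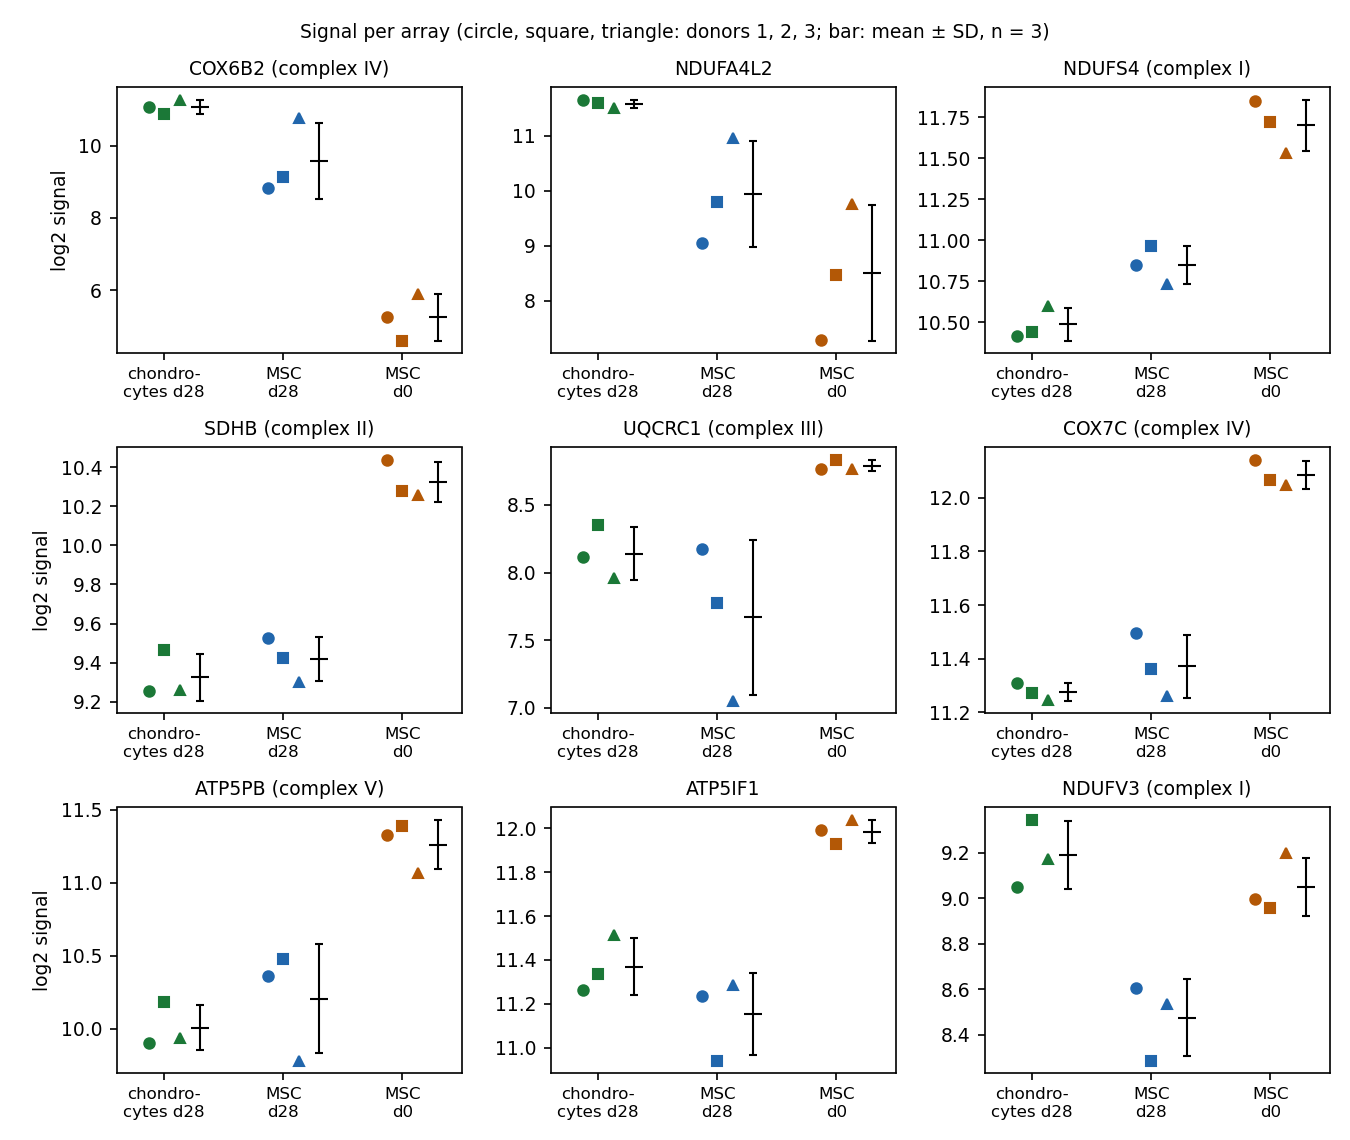
The log2 signal of 9 members is plotted on each array, with circle, square and triangle for donors 1, 2 and 3, and with the mean and SD of each group (n = 3). Panels run through day 28 chondrocytes, day 28 MSCs and day 0 MSCs from left to right. COX6B2 and NDUFA4L2 are lowest in day 0 MSCs, NDUFS4, SDHB, UQCRC1, COX7C, ATP5PB and ATP5IF1 are highest there, and NDUFV3 is lowest in day 28 MSCs.

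In complex V, the ATP synthase, 7 of 16 genes fell in each day 28 group against day 0 MSCs and 0 rose, with medians of -0.52 in MSCs and -0.62 in chondrocytes. Of the 5 genes of the catalytic head, 1 fell in day 28 MSCs and 0 in chondrocytes, though all 5 were below 0 in both comparisons in the probe sets used here. Another probe set of the head gene ATP5F1D rose in both. Of the 11 genes of the stalk, the rotor ring and the small membrane subunits, 6 and 7 fell, and the difference between these parts was not tested. ATP5F1B, the beta subunit at which ATP is made, read 11.34, 11.42 and 11.33 in day 28 chondrocytes, 10.99, 10.94 and 10.84 in day 28 MSCs and 11.57, 11.51 and 11.62 in day 0 MSCs, and no 2 groups overlapped. It fell by 0.65 ± 0.12 in day 28 MSCs (adjusted p = 0.00264) and differed by -0.20 ± 0.12 in chondrocytes (adjusted p = 0.218). It was higher in chondrocytes than in day 28 MSCs by 0.44 ± 0.12 (adjusted p = 0.0417), but was called in 0 of 6 fits without 1 array (adjusted p 0.0653 to 0.137, at 0.40 to 0.48) and not with donor as a block (adjusted p = 0.062). A second probe set of ATP5F1B read 9.71, 10.05 and 9.38 in day 28 chondrocytes and 9.40, 9.90 and 8.62 in day 28 MSCs. In day 0 MSCs that set read 10.63, 10.72 and 10.27, above both day 28 groups without overlap. ATP5F1A, the alpha subunit, differed by -0.33 ± 0.14 in day 28 MSCs and by -0.16 in chondrocytes, neither called.

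The peripheral stalk keeps the catalytic head from turning. ATP5PB, its subunit b, read 9.90, 10.18 and 9.93 in day 28 chondrocytes and 10.36, 10.48 and 9.78 in day 28 MSCs, against 11.33, 11.39 and 11.07 in day 0 MSCs. Both day 28 groups were below day 0 without overlap, by 1.06 ± 0.20 in MSCs (adjusted p = 0.00357) and 1.26 ± 0.20 in chondrocytes (adjusted p = 0.00146). The other stalk genes ATP5PD and ATP5PO fell in chondrocytes by 0.81 ± 0.14 (adjusted p = 0.00272) and 0.79 ± 0.17 (adjusted p = 0.00666). The rotor ring is built from subunit c, and ATP5MC1, ATP5MC2 and ATP5MC3 encode the same mature protein behind different import signals. These 3 genes did not move alike. ATP5MC1 read 7.54, 7.54 and 7.25 in day 28 chondrocytes and 7.24, 7.28 and 6.70 in day 28 MSCs, against 8.23, 8.03 and 8.27 in day 0 MSCs. It fell by 1.10 ± 0.18 in day 28 MSCs (adjusted p = 0.00175) and 0.73 ± 0.18 in chondrocytes (adjusted p = 0.0141, and 0.0525 without chondrocyte replicate 3). ATP5MC2 read 11.34, 11.32 and 11.42 in day 28 chondrocytes, 12.11, 12.29 and 11.70 in day 28 MSCs and 11.89, 12.06 and 11.94 in day 0 MSCs. The chondrocytes were low and the MSC groups overlapped. Its difference was -0.67 ± 0.16 from day 28 MSCs (adjusted p = 0.0314) and -0.60 ± 0.16 from day 0 MSCs (adjusted p = 0.0213), with 0.07 ± 0.16 between the MSC groups. The first stood only without MSC_day28 replicate 3, of the 6 fits without 1 array, and the second was lost without chondrocyte replicates 1 or 2 or MSC_day0 replicate 2 (adjusted p = 0.0666). ATP5MC3 fell by 0.71 ± 0.18 in day 28 MSCs (adjusted p = 0.0162), which became 0.0576 without MSC_day0 replicate 2, and differed by -0.51 ± 0.18 in chondrocytes (adjusted p = 0.0631), which was called with donor as a block (adjusted p = 0.025). Whether the 3 genes differ from each other was not tested.

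The 11 assembly factors and relatives were more mixed. Against day 0 MSCs, 2 fell in day 28 MSCs, and 3 fell and 1 rose in chondrocytes. NDUFA4L2, a relative of NDUFA4 that is induced by low oxygen and in mouse and human cells lowers complex I activity, was the highest riser among them. It read 11.65, 11.59 and 11.51 in day 28 chondrocytes, 9.05, 9.79 and 10.96 in day 28 MSCs and 7.29, 8.47 and 9.75 in day 0 MSCs. The chondrocyte arrays lay close together above the rest, while the MSC groups overlapped, with donor 3 the highest in each. The rise in chondrocytes against day 0 MSCs was 3.08 ± 0.61 (adjusted p = 0.00454), and 2.47 to 3.70 in the fits without 1 array. Each donor was higher in day 28 than in day 0 MSCs, by 1.76, 1.32 and 1.21, but the difference of 1.43 ± 0.61 was not called without the block (adjusted p = 0.11) and was called with it (adjusted p = 0.034). Without MSC_day0 replicate 3 it was 2.05 and called (adjusted p = 0.0234). Between chondrocytes and day 28 MSCs the value was 1.65 ± 0.61 (adjusted p = 0.126), and the block gave a call there too (adjusted p = 0.042), with donor differences of 2.60, 1.80 and 0.55. A second probe set of the gene gave 3.05 ± 0.49 in chondrocytes against day 0 MSCs.

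ATP5IF1, the protein that stops the ATP synthase from running backwards, fell with the subunits. It read 11.26, 11.33 and 11.51 in day 28 chondrocytes and 11.24, 10.94 and 11.29 in day 28 MSCs, against 11.99, 11.93 and 12.04 in day 0 MSCs. The falls were 0.83 ± 0.14 in day 28 MSCs (adjusted p = 0.00197) and 0.62 ± 0.14 in chondrocytes (adjusted p = 0.00938). NDUFAF8, an assembly factor of complex I, had the largest falls of all 88 members, at -1.60 ± 0.26 in day 28 MSCs (adjusted p = 0.0015) and -1.57 ± 0.26 in chondrocytes (adjusted p = 0.0017). SDHAF3, which helps to build complex II, fell in chondrocytes against day 0 MSCs by 0.86 ± 0.14 (adjusted p = 0.00142). It was also lower in chondrocytes than in day 28 MSCs, by 0.54 ± 0.14 (adjusted p = 0.0366), but 1 of 6 fits without 1 array kept that call, the one without chondrocyte replicate 1. NDUFAF3, of complex I assembly, was lower in chondrocytes than in day 28 MSCs by 0.49 ± 0.13 (adjusted p = 0.0486), which stood only without MSC_day28 replicate 2 and was lost with donor as a block (adjusted p = 0.059). Another probe set of NDUFAF3 read 6.27, 6.39 and 6.24 in chondrocytes against 7.06, 7.19 and 6.70 in day 28 MSCs, without overlap. A further set of lower signal overlapped, at 5.05, 4.82 and 4.77 against 4.98, 4.69 and 4.77. COX7A2L, which joins complex III to complex IV, was not called in any comparison.

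Calls between chondrocytes and day 28 MSCs were thus NDUFV3 and ATP5F1B, higher in chondrocytes, and ATP5MC2, NDUFAF3 and SDHAF3, lower in them. Each of the 5 had the same sign in all 3 donors, but 0 of them were called in all 6 fits without 1 array. With donor as a block 3 were higher and 3 lower in chondrocytes: ATP5F1B and NDUFAF3 were lost, and COX6B2 and NDUFA4L2, both higher, and NDUFS5, lower at -0.61 (adjusted p = 0.039), were gained. Markers of dividing cells separated these 2 groups. All 7 measured were higher in chondrocytes, with a mean level per array of 8.50 to 8.69 in day 28 chondrocytes, 3.99 to 5.03 in day 28 MSCs and 7.22 to 7.67 in day 0 MSCs. The part of cell division in the members' values was not tested. The blood cell markers, 11 genes, had a mean level of 3.24 to 3.39 in day 28 chondrocytes, 3.05 to 3.19 in day 28 MSCs and 3.24 to 4.30 in day 0 MSCs, with 6, 7 and 4 of them below the 25th percentile of probe sets. The 7 marrow stromal markers ran at 5.59 to 5.86, 5.40 to 6.04 and 6.66 to 7.71 in the same groups, 1 or 2 of them below that percentile, and the 7 endothelial markers at 3.75 to 3.86, 3.68 to 3.86 and 3.30 to 3.43, with 4 or 5 below it. The blood levels of chondrocytes and day 0 MSCs overlapped, and within each list the genes differed. Against day 0 MSCs, 5 blood markers were lower and 0 higher in day 28 MSCs. In chondrocytes 5 were lower and 1, CD14, was higher. Of the stromal markers 3 were lower in day 28 MSCs and 2 in chondrocytes, and 0 were higher. Of the endothelial markers only ERG and TEK were called, both higher in each day 28 group. The part of these cell types in the members' values was not tested.

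Among the members, 24 genes had more than 1 probe set, and these did not always move together. In day 28 MSCs against day 0 MSCs, 5 genes had a second probe set called the other way, namely COX6A1, COX6C, NDUFAB1, NDUFB1 and UQCRC2, and 3 had one called the same way. In chondrocytes against day 0 MSCs these counts were 4 and 4. For COX6C, a nuclear subunit of complex IV, the probe set used here read 11.21, 11.14 and 11.00 in day 28 chondrocytes, 11.44, 11.53 and 11.19 in day 28 MSCs and 11.83, 12.21 and 11.92 in day 0 MSCs, and fell by 0.87 ± 0.15 in chondrocytes (adjusted p = 0.00253). Its second probe set, of far lower signal, read 5.64, 5.20 and 6.26 in day 28 chondrocytes, 6.65, 7.20 and 6.91 in day 28 MSCs and 2.17, 2.60 and 3.06 in day 0 MSCs. It rose by 4.31 ± 0.31 in day 28 MSCs and by 3.09 ± 0.31 in chondrocytes, so that the direction of COX6C depends on the probe set. The second set of UQCRC2, a core subunit of complex III, rose by 1.64 ± 0.23 in day 28 MSCs (adjusted p = 0.000726) and 1.84 ± 0.23 in chondrocytes (adjusted p = 0.000379), against falls of 0.43 ± 0.14 and 0.47 ± 0.14 in the set used here. ATP5F1D, the delta subunit of the ATP synthase, was not called in the set used here, at -0.90 in chondrocytes against day 0 MSCs (adjusted p = 0.143, and 0.018 with donor as a block), but rose in another by 1.30 ± 0.21 in day 28 MSCs and 2.01 ± 0.21 in chondrocytes. For NDUFA5, of the peripheral arm of complex I, 3 probe sets fell in day 28 MSCs, by 0.54, 2.63 and 1.16, and 1 of them was higher in chondrocytes than in day 28 MSCs by 1.61 ± 0.23. Which transcripts these sets detect was not tested.

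Other mitochondrial genes were read beside the subunits, and their counts stand beside the 21% of all genes that fell and 13.5% that rose in day 28 MSCs and the 20.9% and 15.1% in chondrocytes, against day 0 MSCs. Of 67 genes of the mitochondrial ribosome, which translates the subunits encoded in mitochondrial DNA, 32 fell and 3 rose in day 28 MSCs, and 43 fell and 0 rose in chondrocytes, with medians of -0.60 and -0.72 against day 0 MSCs. MRPL14 had the smallest p of them in day 28 MSCs, at -1.44 ± 0.16 (adjusted p = 0.000225). Of 18 genes of the protein import machinery, 7 fell and 2 rose in day 28 MSCs, and 5 fell and 0 rose in chondrocytes. Among 16 further assembly genes of the respiratory complexes, 4 fell and 1 rose in day 28 MSCs, and 5 fell and 1 rose in chondrocytes, with COX10, which makes the haem of complex IV, at -1.79 ± 0.27 in day 28 MSCs (adjusted p = 0.00112). In the tricarboxylic acid cycle 3 of 11 genes fell and 0 rose in day 28 MSCs, and 2 fell and 1 rose in chondrocytes, shares close to those of all genes, with SUCLG1 of succinyl-CoA ligase at -0.89 ± 0.12 in day 28 MSCs (adjusted p = 0.000564). Of 12 genes that govern the entry of pyruvate, 4 fell in each day 28 group, and 0 rose in MSCs and 1 in chondrocytes. The falls included the pyruvate carrier MPC2 at -1.51 ± 0.19 in MSCs (adjusted p = 0.000374) and the phosphatase PDP1 at -1.81 ± 0.23 in chondrocytes (adjusted p = 0.000446), and the rise was that of the kinase PDK4, at 2.62 ± 0.43 (adjusted p = 0.00168). Of 7 genes of nucleotide and phosphate carriers and pores, 3 fell and 0 rose in day 28 MSCs, and 2 fell and 0 rose in chondrocytes. Their medians were -0.10 and -0.21, and in chondrocytes 3 of the 7 were above 0. SLC25A4, an ATP and ADP exchanger of the inner membrane, had the smallest p of them in both. It fell by 0.80 ± 0.15 in day 28 MSCs (adjusted p = 0.0041) and by 1.29 ± 0.15 in chondrocytes (adjusted p = 0.00031). A list of 10 genes held regulators of mitochondrial biogenesis together with genes that copy, maintain or transcribe mitochondrial DNA. Of these, 3 rose and 1 fell in day 28 MSCs and 2 rose and 2 fell in chondrocytes, with medians of 0.42 and 0.13. PPARGC1A, the coactivator PGC-1alpha, was at 1.86 ± 0.46 in day 28 MSCs and 2.55 ± 0.46 in chondrocytes. SSBP1, which coats single-stranded mitochondrial DNA, was the single faller of the list in day 28 MSCs, at -0.68 ± 0.12. It was also called lower in chondrocytes, at -0.95 ± 0.12. The 62 cytosolic ribosomal protein genes, another group of high signal, had 1 higher and 1 lower in day 28 MSCs and a median of -0.04, and 1 higher and 7 lower in chondrocytes and a median of -0.19.

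**Figure D4:**
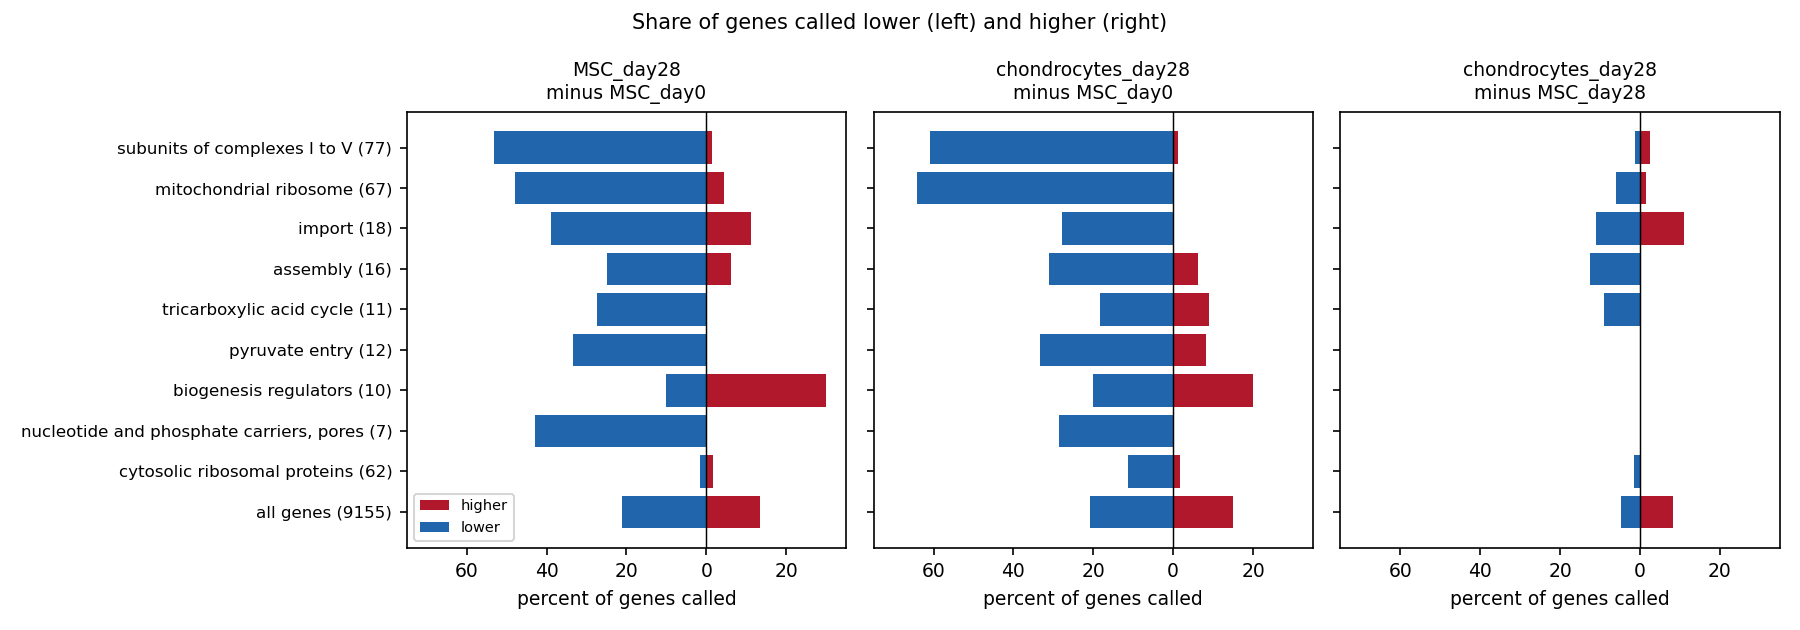
Bars give the percent of genes called higher (right) and lower (left) in 8 mitochondrial gene lists, the cytosolic ribosomal proteins and all genes, with 1 panel per comparison and the number of genes beside each name. The bottom row holds all 9155 genes. The subunits of the complexes and the mitochondrial ribosome have the longest bars to the left of the lists plotted in both comparisons with day 0 MSCs, and between the day 28 groups no list has a bar of that length.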

How the data were processed

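RNA was extracted with trizol, primed at the poly(A) tail, amplified linearly and labelled with biotin, per the labels' protocols. The authors deposited log2 values, for which the submitters' processing notes name RMA, with no version given in the sources used here. RMA equalises the distributions of the arrays and so hides any shift shared by most transcripts. The number of arrays limits the precision. Of 24128 probe sets, 112 controls were left out. Of the 24016 tested, 13292 had 1 symbol, 86 several and 10638 none, and symbols were updated from RefSeq (ARS-UCD2.0), where all 88 members matched.

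All 3 groups entered 1 fit (lmFit and eBayes, limma 3.58.1 in R 4.3.3), with Benjamini-Hochberg adjustment over 24016 probe sets per comparison. Standard errors are moderated, with n = 3 per group, and differences are given as the first-named group minus the second. Donor numbers pair the arrays, since cells came from the same calf per the labels: deviations from group means correlated at 0.108 to 0.412 within donors and -0.303 to 0.152 between donors. The donor entered as a block in an alternative. Named were, per comparison and class, the 3 largest called rises and falls, isoform pairs and 10 core subunits. From the other lists, some of the called genes of smallest p per comparison were named. NDUFS4, NDUFA1, NDUFB2, NDUFC2, NDUFA5, NDUFB1, NDUFAB1, SDHC, SDHD, UQCRC2, UQCRH, NDUFS5, ATP5F1D, PDK4 and PPARGC1A were picked after their values were seen, as was the split of complexes I and V into parts. The members and lists were chosen with earlier results of these data known. The script was tested on simulated data. Other scalings, signal filters, probe set rules, variance models and omissions of arrays or donors were tried.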

Additional observations from a re-analysis of the deposited data

How the results depend on the processing

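The direction of the members' median in both comparisons with day 0 MSCs was the same under all alternatives run, from -0.41 to -0.72 in chondrocytes. For day 28 MSCs against day 0 MSCs (1 higher, 43 lower, median -0.54), 4 members were higher with the mean of a gene's probe sets, 6 with the probe set of largest SD, 3 with donor as a block, 2 without donor 2 and 2 without donor 3. The lower members numbered 21, 13 and 25 without donors 1, 2 and 3, with 2 arrays left per group. Leaving out 1 array gave 1 to 2 higher, 32 to 45 lower and medians of -0.60 to -0.44. For chondrocytes against day 0 MSCs (2 higher, 50 lower, median -0.60), 32 were lower with arrays centred on ribosomal protein genes, and 11, 26 and 32 without donors 1, 2 and 3. The higher members numbered 4 with the mean of probe sets, 7 with the set of largest SD, and 1 without donor 2 or without assembly factors. The median was -0.72 with array medians set equal, -0.41 with ribosomal centring, -0.52 with cyclic loess and -0.52 with the mean of probe sets. Leaving out 1 array gave 2 higher, 35 to 45 lower and medians of -0.63 to -0.56. Under ribosomal centring the median over all probe sets shifted by 0.19 in this comparison and by 0.16 between the day 28 groups. For chondrocytes against day 28 MSCs (2 higher, 3 lower, median -0.09), 1 was higher with array medians set equal, signal above the 25th percentile, only the 2 groups in the fit, a 1.5-fold minimum or without the 2 arrays of low bioC, and 0 without donor 1 or 2. Lower members numbered 0 with ribosomal centring, only the 2 groups, or without donor 1 or 2, and 1 with cyclic loess, a 1.5-fold minimum, or without donor 3, the 2 low arrays or the assembly factors. The median was 0.074 with ribosomal centring, and leaving out 1 array gave 0 to 2 higher, 0 to 3 lower and medians of -0.15 to 0.0035. COX6C in chondrocytes against day 0 MSCs reversed to 1.11 with the mean of its probe sets (adjusted p = 0.00184) and 3.09 with the set of largest SD (adjusted p = 0.000111). The donor block changed no other call of a gene named by the rule than those given above, and 0 rises or falls between the day 28 groups were called under every alternative. Signal over background was not estimated. The mean signal of 87 members was above the median of probe sets, and that of COX6A2 lay near the 25th percentile.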
